A study of Mus musculus with 6 samples.

Results

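Gas5 and 7 genes of the Snhg (small nucleolar RNA host gene) family were followed in the cortex of newborn mice that lack the amino acid carrier Slc7a5 in part of their cells. The 8 genes were taken by name, as noncoding transcripts known to build up when translation or mTOR signalling is low. They are 8 of 52550 listed genes, and all 8 were among the 14913 genes with enough reads to be tested. Every library came from 1 cortical hemisphere of a C57BL6/J pup at postnatal day 2. The knockout group (n = 3) had the genotype Slc7a5fl/fl; Emx1Cre+, in which both copies of Slc7a5 are floxed and Cre recombinase is driven by Emx1. The control group (n = 3) was Slc7a5fl/fl; Emx1Cre-, which the series text calls wild type although both alleles are floxed. No control carries Cre, so what Cre itself does and what the deletion does cannot be told apart. The titles give 1 library of each genotype the letter A, B or C, and the series text calls them biological replicates. Emx1-driven Cre acts in the progenitors of cortical excitatory neurons and much of the glia, so microglia, vessels and most interneurons keep the gene.

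Small nucleolar RNAs (snoRNAs) guide the chemical modification of ribosomal RNA and lie in the introns of host genes. The box C/D kind directs ribose methylation and the box H/ACA kind pseudouridylation. In hosts such as Gas5 the spliced exons encode no known protein, but the transcript begins with a pyrimidine-rich 5′ end like that of ribosomal protein mRNAs and is loaded onto ribosomes. Ribosomes then stop after a short reading frame, and the RNA is degraded by nonsense-mediated decay. When translation slows, such RNAs are known to escape decay. Slc7a5 is the light chain of LAT1, which imports leucine and other large neutral amino acids that feed mTORC1, the kinase that promotes translation. The comparison asks whether these hosts differ when that carrier is removed.

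Gene counts per library were 8249436 to 10372582. Slc7a5 had 20.2, 40.7 and 26.1 CPM (counts scaled for library size) in the controls against 15.6, 9.37 and 11.4 CPM in the knockouts, here and below in the order of the letters A, B and C, so its groups did not overlap. Its log2 change was -1.25 ± 0.28 (SE). By edgeR's quasi-likelihood test, the one used throughout, the Benjamini-Hochberg adjusted p was 0.400, and by DESeq2 it was 4.17e-04. Xist, made from the inactive X chromosome of females, was at 918 and 961 CPM in the control and knockout of letter B and at most 2.95 CPM in the others. The 12 markers of excitatory cortical neurons were all detected, with a summed 3467 to 3805 CPM in controls and 3462 to 3694 CPM in knockouts. Reads that fit no annotated exon on the counted strand were 22.5 to 26.5% of mapped reads in controls and 27.4 to 27.9% in knockouts. An exact two-sided permutation test gave p = 0.100, the smallest that 3 against 3 allow. This share takes in reads on the strand opposite to a gene.

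The hosts differ in how much of their gene body is counted as exon, and in the number of snoRNAs inside. Gas5 (ENSMUSG00000053332, GRCm38 chromosome 1 from 161034422 to 161038539, plus strand) holds 10 snoRNA records at 9 places. Snhg1 (ENSMUSG00000108414, chromosome 19 from 8723475 to 8726443, plus strand) holds 8. Snhg12 (ENSMUSG00000086290, chromosome 4 from 132308623 to 132311024, plus strand) holds 5 records at 4 places. These are the hosts with the most snoRNAs among the 8. Snhg3 (ENSMUSG00000085241, chromosome 4 from 132348014 to 132353686, minus strand) holds the H/ACA RNAs Snora73a and Snora73b, and Snhg5 (ENSMUSG00000097195, chromosome 9 from 88521050 to 88522929, minus strand) holds Snord50a and Snord50b. The other hosts carry 1 each. Snhg6 (ENSMUSG00000098234, chromosome 1 from 9941959 to 9944118, minus strand) holds Snord87, and Snhg8 (ENSMUSG00000104960, chromosome 3 from 123507552 to 123508404, minus strand) holds Snora24. Snhg15 (ENSMUSG00000085156, chromosome 11 from 6525591 to 6528760, minus strand) holds Snora9. Annotated transcripts that retain introns extend the exons of some hosts, but of the 10 transcripts of Snhg12, 0 are labelled so. Merged exons covered 100% of the bodies of Snhg1, Snhg8 and Snhg12, 92.0% of Snhg5 and 91.3% of Gas5. They covered 53.1%, 42.9% and 17.4% of Snhg6, Snhg15 and Snhg3. A count for a host of the first kind therefore takes in unspliced as well as spliced RNA.

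**Figure D1:**
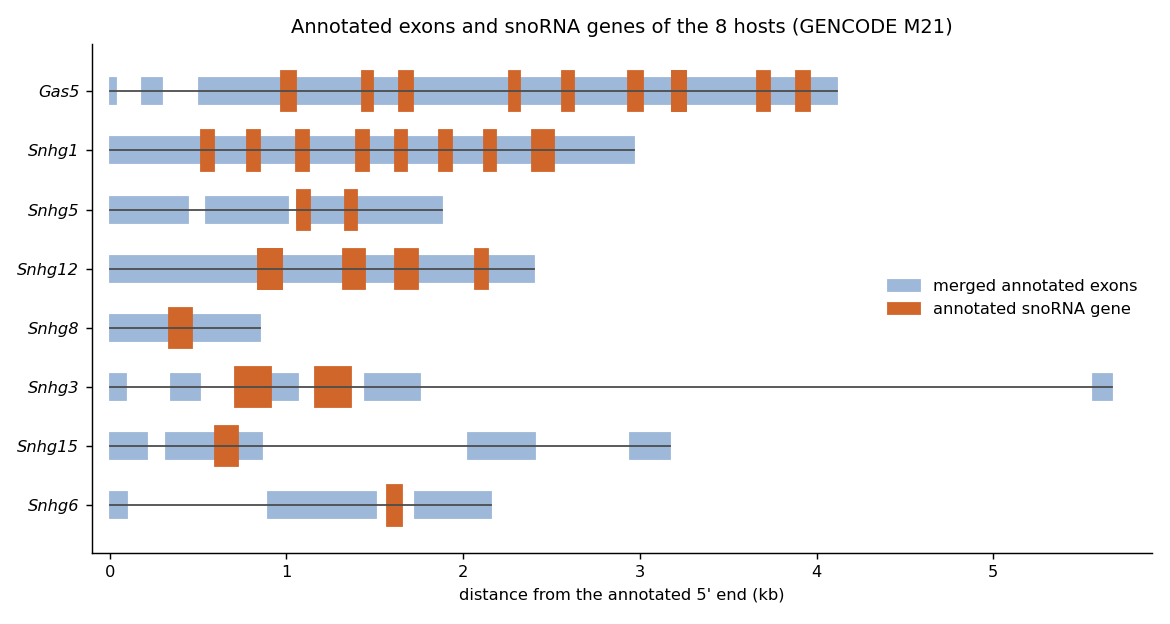
Exons and snoRNA genes of the 8 hosts, drawn to scale from the annotated 5′ end of each gene (x axis, kb). Blue boxes are the merged exons of all annotated transcripts, orange boxes the annotated snoRNA genes, and thin lines the gene body. Gas5 and Snhg1 hold the most snoRNAs, and Snhg3 and Snhg15 have the smallest share of exon.

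The 5′ ends are shown because the pyrimidine tract at the start of the RNA is the feature for which these hosts are grouped with ribosomal protein genes. The RefSeq promoter table (GRCm38.p6) held 7 of the 8 genes, Gas5 with 2 starts. Each line below gives 20 bases before and 30 bases from the annotated start, on the strand of the gene. Capitals mark the longest unbroken run of at least 5 C or T letters that touches the 5 bases on either side of the start.
Gas5, upstream start, chr1:161034581-161034630, plus strand: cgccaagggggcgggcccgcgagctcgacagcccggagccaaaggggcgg
Gas5, downstream start, chr1:161035146-161035195, plus strand: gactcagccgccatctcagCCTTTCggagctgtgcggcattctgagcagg
Snhg12, chr4:132308658-132308707, plus strand: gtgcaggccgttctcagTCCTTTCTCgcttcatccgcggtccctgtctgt
Snhg1, chr19:8723467-8723516, plus strand: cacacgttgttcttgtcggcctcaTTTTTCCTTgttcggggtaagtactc
Snhg8, chr3:123508307-123508356, minus strand: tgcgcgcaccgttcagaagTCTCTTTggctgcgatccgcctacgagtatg
Snhg3, chr4:132353657-132353706, minus strand: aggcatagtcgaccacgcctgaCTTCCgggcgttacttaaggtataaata
Snhg5, chr9:88522868-88522917, minus strand: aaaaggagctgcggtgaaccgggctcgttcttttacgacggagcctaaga
Snhg15, chr11:6528731-6528780, minus strand: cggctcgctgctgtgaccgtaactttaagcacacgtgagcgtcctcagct
The run was 9 letters long in Snhg12 and Snhg1, 7 in Snhg8, 6 at the downstream start of Gas5 and 5 in Snhg3. The windows of Snhg5 and Snhg15 held none at this place. Among all 32851 windows there, 31.4% held such a run, so it is common. In the full windows of 300 bases, TGATGNAA, a core of the element bound by ATF4 with C/EBP factors, was found on neither strand of any of the 8 host windows, and in 3.97% of all windows. CACGTG, the E-box of MYC and related factors, was in the window of Snhg15 alone, beginning at base 12 of the transcript, and in 7.15% of all windows.

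Snhg12 and Gas5 were higher in each knockout than in any control, by 1.36-fold and 1.14-fold. Snhg1 and Snhg5 were higher by about as much as Gas5 but with overlapping groups, and Snhg8 was a little lower in each knockout. Snhg3 and Snhg15 differed little, and Snhg6 varied widely within both genotypes. None of the 8 hosts passed the test between genotypes (adjusted p under 0.05 in edgeR), for which 0.0335% of the 14913 tested genes (5 genes) passed, 0.0201% as higher and 0.0134% as lower. With library totals alone as the scaling 10 genes passed, 8 higher and 2 lower. At an unadjusted p under 0.05 there was 1 host, Snhg12, where 7.00% of all genes were under that value, 3.19% as higher and the rest as lower. DESeq2 gave 2 hosts at that level, Gas5 and Snhg12, beside 3.06% of the 25648 genes to which it gave a p, scarce genes included. With the letter as a block none passed either, where 0.845% of genes (126) did, and DESeq2 called none where it called 0.214%. The hosts ran from -0.56 to 0.45 on the log2 scale, 5 above and 3 below 0, with a median of 0.13, beside 50.2% above 0 and a median of 0.0011 over all tested genes. Groups that lay apart, as for Snhg12 and Gas5, were found in 5.89% of genes with the knockout higher, and in 6.28% with the knockout lower, as for Snhg8. In bulk cortex, fewer cells that hold a transcript and less of it per cell cannot be told apart.

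**Figure D2:**
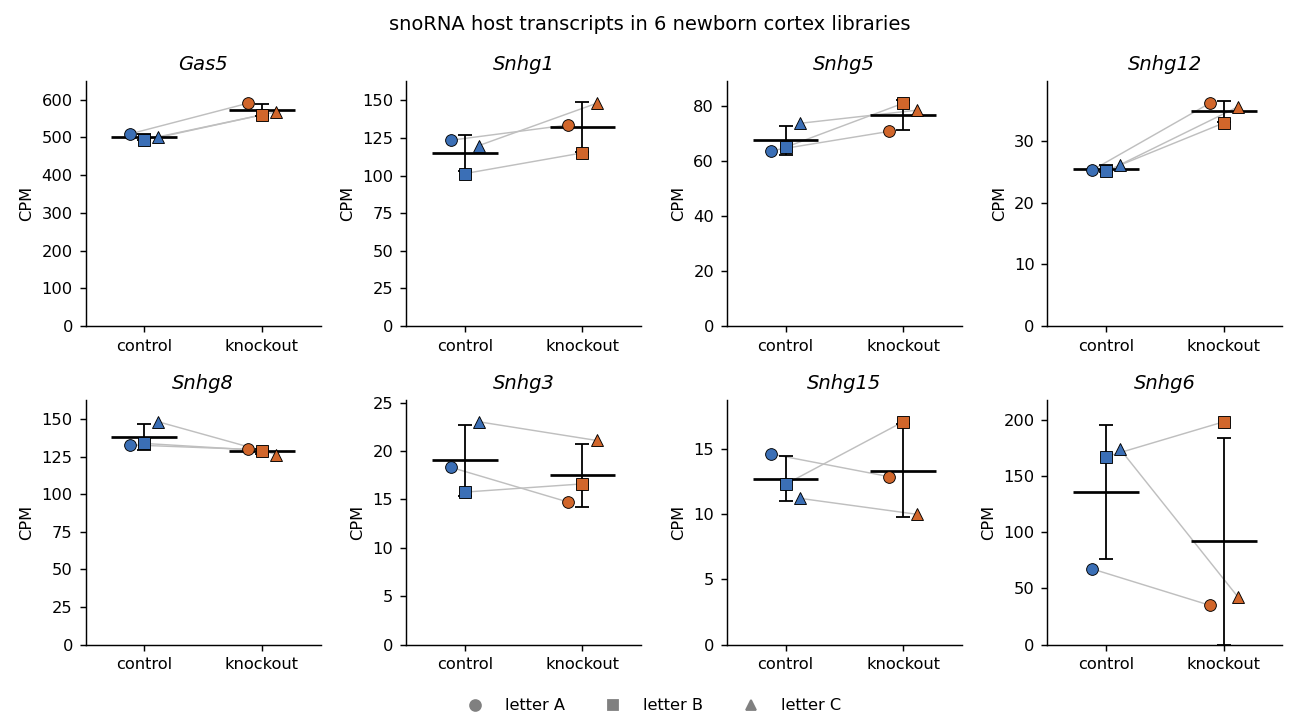
CPM of each host (y axes, linear from 0) in the 3 control (blue) and 3 knockout (orange) libraries. Symbols give the letter, grey lines join libraries of the same letter, and black bars with whiskers are the mean ± SD. Snhg12 and Gas5 lie apart by genotype with tight groups, and Snhg6 spreads from 35.0 to 198 CPM without separating the genotypes.

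Snhg12 had the largest positive value of the 8 and the smallest p. Its level was 25.3, 25.2 and 26.2 CPM in the controls (251, 203 and 257 reads) against 36.1, 32.9 and 35.5 CPM in the knockouts (351, 355 and 342 reads). All 3 knockouts lay above all 3 controls, and the controls differed among themselves by about 1 CPM. Group means were 25.5 ± 0.552 and 34.9 ± 1.70 CPM (SD, n = 3). The log2 change was 0.45 ± 0.12 (SE), or 1.36-fold with a 95% interval of 1.15 to 1.62. The unadjusted p was 0.00153, the 61st smallest of all tested genes, and the adjusted p was 0.374 in edgeR. With the letter as a block the adjusted p was 0.0539, just outside the threshold. Without letter B in both groups the same fit gave 0.48 and an adjusted p of 0.0403, which passed, as 161 of 14966 genes did. Without letter A the adjusted p of that fit was 0.190, and without letter C it was 0.295. By DESeq2 the adjusted p was 0.277, and 0.395 with the block. Snhg12 hosts Snora16a, Snora44, Snora61 and Snord99 and lies 738 bases from the end of Trnau1ap on the opposite strand. Trnau1ap, a factor for selenocysteine incorporation, had 25.1 ± 1.75 CPM in controls and 26.0 ± 2.25 CPM in knockouts (SD, n = 3).

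Gas5 was the most abundant host by CPM. Its values were 509, 494 and 500.0 CPM in the controls against 590.4, 560 and 568 CPM in the knockouts, with no overlap. Group means were 501 ± 7.96 and 573 ± 15.9 CPM (SD, n = 3). The log2 change was 0.19 ± 0.095 (SE), or 14.3% more, with a 95% interval from 0.994-fold to 1.31-fold (adjusted p = 0.728 in edgeR). The pair differences of letters A, B and C were 0.21, 0.18 and 0.18. Gas5 was among the least variable genes within a genotype, since 99.7% of tested genes had a larger within-group SD of log2 CPM. Its start overlaps by 428 bases that of Zbtb37, a zinc finger gene on the opposite strand. Zbtb37 had 43.2 ± 3.41 and 42.8 ± 1.34 CPM (SD, n = 3).

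Snhg1 and Snhg5 had values of about the same size, with overlapping groups. Snhg1 had 123, 101 and 120.0 CPM in the controls against 134, 115 and 148 CPM in the knockouts. Control A lay above knockout B, while within each letter the knockout was higher. Its log2 change was 0.20 ± 0.12 (SE, adjusted p = 0.780 in edgeR), and 0.11 without knockout C and 0.12 without control B. Snhg5, the host of the U50 snoRNAs, had 63.9, 65.1 and 73.8 CPM in controls and 70.9, 81.2 and 78.7 CPM in knockouts. Control C lay above knockout A, and the log2 change was 0.19 ± 0.11 (SE, adjusted p = 0.783 in edgeR). In 4 of the 8 hosts (Snhg12, Gas5, Snhg1 and Snhg5) the knockout was the higher library in all 3 letters, as in 16.2% of all genes. With the letter as a block, Snhg12, Gas5 and Snhg1 had an unadjusted p under 0.05 in that direction, as 5.44% of genes did. These 4 hosts are among the 5 whose body is over 90% exon, the other being Snhg8. Reads that fit no exon on the counted strand were the higher share in the knockouts, as given above. Their part in the values of these hosts was not tested.

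Snhg1 lies head to head with Slc3a2, the gene of the LAT1 heavy chain that pairs with the deleted Slc7a5 protein. Only 105 bases part the annotated starts of Slc3a2 (chromosome 19 from 8706882 to 8723369, minus strand) and Snhg1. The window of 300 bases around them is printed because both genes start within it, with the bases between the 2 genes in capitals, read on the strand of Snhg1.
chr19:8723237-8723536, plus strand, GRCm38.p6: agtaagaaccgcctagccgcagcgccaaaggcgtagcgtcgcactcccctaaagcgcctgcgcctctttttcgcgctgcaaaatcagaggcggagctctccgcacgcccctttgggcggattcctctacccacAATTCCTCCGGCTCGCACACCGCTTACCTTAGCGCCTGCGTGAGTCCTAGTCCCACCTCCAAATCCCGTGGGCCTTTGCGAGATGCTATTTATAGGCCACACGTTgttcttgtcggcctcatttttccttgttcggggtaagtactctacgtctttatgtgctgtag
Slc3a2 had 91.5, 134 and 130 CPM in the controls against 85.4, 73.9 and 108 CPM in the knockouts. Each knockout was below the control of its letter, where Snhg1 was above. The log2 change of Slc3a2 was -0.41 ± 0.17 (SE, adjusted p = 0.685 in edgeR). Neither gene passed, and the difference between them was not tested.

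Snhg8 and Snhg3 had lower means in the knockout, and Snhg15 a mean close to the control. Snhg8 had 133, 134 and 148 CPM in the controls against 130, 129 and 126 CPM in the knockouts. All knockouts were below all controls, but the gap was narrow. The log2 change was -0.11 ± 0.098 (SE, 95% interval from 0.804-fold to 1.07-fold, adjusted p = 0.872 in edgeR), and it was -0.055 without control C. It was the host lower in the knockout in all 3 letters, as 16.8% of genes were. Prss12, a neuronal serine protease whose end lies 954 bases from Snhg8 on the opposite strand, had 34.9 ± 3.86 and 26.3 ± 2.33 CPM (SD, n = 3). The log2 change of Prss12 was -0.41 ± 0.13 (SE, adjusted p = 0.480 in edgeR).

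Snhg3 had 18.3, 15.8 and 23.0 CPM in the controls against 14.7, 16.6 and 21.1 CPM in the knockouts. The genotypes overlapped through most of their range, and the log2 change of -0.13 ± 0.17 (SE, adjusted p = 0.927 in edgeR) turned to 0.031 without control C. Snhg3 shares 5592 bases of its body with Rcc1, the exchange factor of the Ran GTPase, on the same strand. STAR counts a read that fits more than 1 gene for none, so the Snhg3 count may be a partial one. Rcc1 itself had 50.3 ± 0.533 and 48.1 ± 5.34 CPM (SD, n = 3). A noncoding gene on the opposite strand also overlaps 1611 bases of Snhg3. Counted without strand, Snhg3 had 0 to 2 reads per library, in place of 127 to 226. Snhg15 was the least abundant host, with 14.6, 12.3 and 11.2 CPM in the controls against 12.9, 17.1 and 9.97 CPM in the knockouts. Knockout B was the highest and knockout C the lowest of the 6. Its log2 change of 0.070 ± 0.19 (SE, adjusted p = 0.964 in edgeR) turned to -0.15 without knockout B and to -0.016 without control C.

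**Figure D3:**
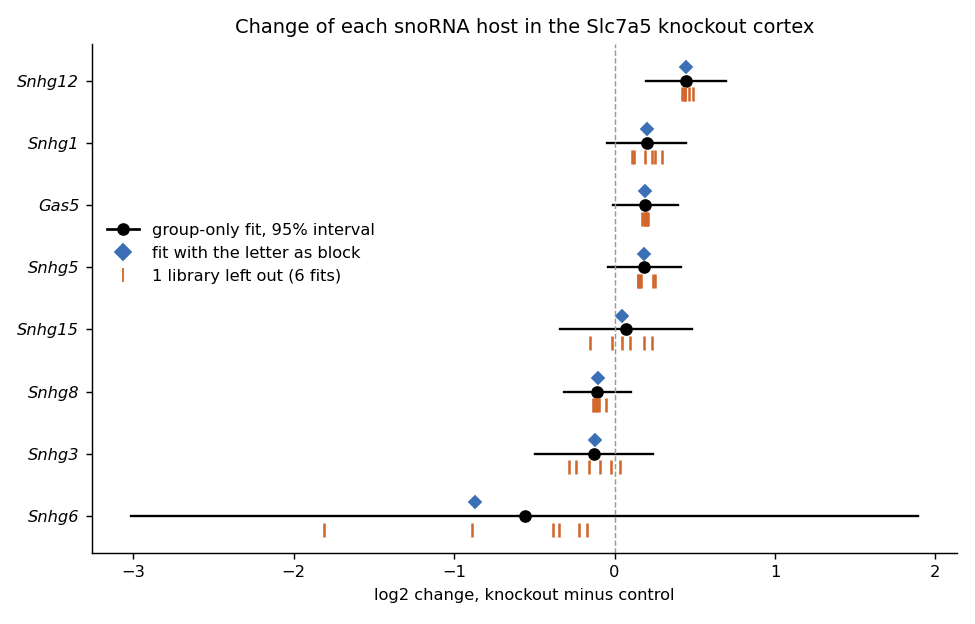
Log2 change of each host, knockout minus control (x axis). Black points and lines are the group-only fit with its 95% interval, blue diamonds the fit with the letter as a block, and orange ticks the 6 fits with 1 library left out. Snhg12 is the host whose interval lies above 0, and the interval of Snhg6 spans -3.01 to 1.89.

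Snhg6 stood apart from the other hosts by its spread within each genotype. It had 67.3, 167 and 174 CPM in the controls (669, 1348 and 1706 reads) against 35.0, 198 and 42.5 CPM in the knockouts (340, 2138 and 409 reads). Control A and knockouts A and C were low, and controls B and C and knockout B were high, with no library between 67.3 and 167 CPM. Both libraries of letter B, the ones with Xist, were among the high ones, as was control C without it. The highest library was 5.67 times the lowest, against at most 1.71 times in the other 7 hosts. Its within-group SD of log2 CPM was 1.11, the 16th largest of 9582 genes with a mean of at least 10 CPM. The pair differences for letters A, B and C were -0.94, 0.25 and -2.03, so the letters did not give 1 direction. The log2 change of -0.56 ± 0.90 (SE, adjusted p = 0.942 in edgeR) was -1.81 without knockout B and -0.17 without knockout A.

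The tested genes within 200 kb of Snhg6 did not share this pattern. Cops5, a subunit of the COP9 signalosome, had 174 to 202 CPM over the 6 libraries, and Arfgef1, a guanine nucleotide exchange factor, 67.9 to 75.8 CPM. The 7 flanking genes varied by 1.12 to 2.20 times between their lowest and highest library. Snhg6 overlaps the last 127 bases of Mcmdc2 on the opposite strand, which had 1.75 to 3.26 CPM. Reads on the strand opposite to Snhg6 were 0.121% of its own. Counted without strand, Snhg6 had fewer reads in every library. It then had 404, 859 and 1240 reads in the controls against 156, 1289 and 263 reads in the knockouts. Snord87, the box C/D snoRNA in its intron, is shown as the 1 snoRNA of that kind with reads of its own here, with the C box and the D box in capitals.
Snord87, 87 bases, minus strand: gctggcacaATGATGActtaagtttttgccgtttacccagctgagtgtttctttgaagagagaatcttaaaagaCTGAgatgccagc
Snord87 had 2, 5 and 1 reads in the controls against 14, 5 and 2 reads in the knockouts, 29 in all. Knockout A, with the lowest Snhg6, had the most, but knockout C, the next lowest for Snhg6, had 2. Of the 30 snoRNA records in the 8 hosts, 28 overlap host exons and were listed at 0 in every library, where a read fits 2 genes and is counted for neither. Besides Snord87, Snora73b in an intron of Snhg3 had 12 to 20 reads per library. The libraries were selected for polyA, so mature snoRNAs were not measured.

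**Figure D4:**
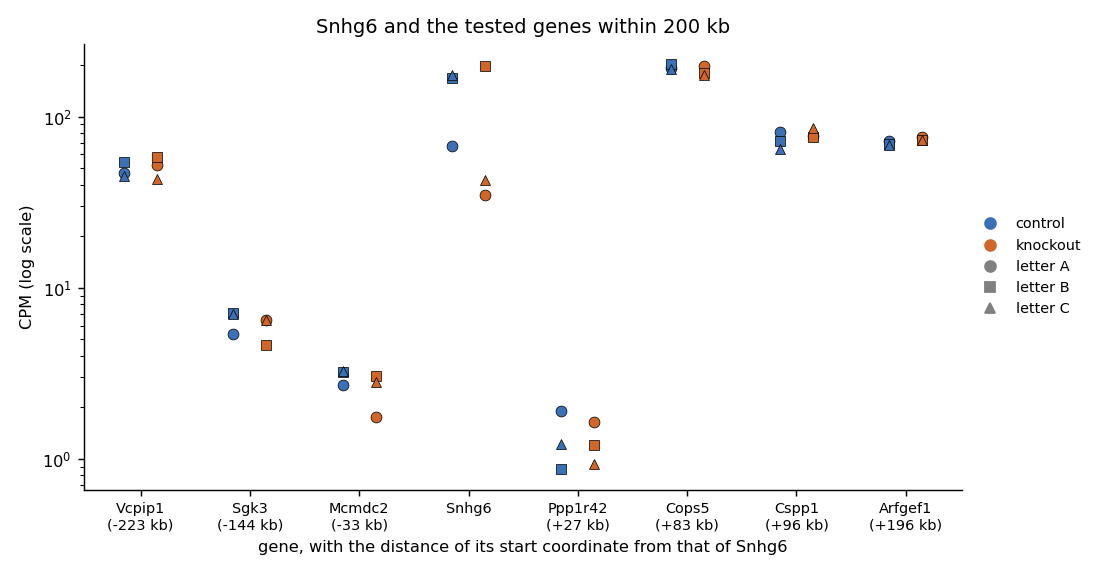
CPM (y axis, log scale) of Snhg6 and the tested genes within 200 kb of it, in the 6 libraries. Colour gives the genotype and the symbol the letter. Snhg6 falls into a low and a high set of 3 libraries each, while Cops5 and Arfgef1 are level.

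The order of the levels depends on length. Per kb of merged exons in controls, Snhg8 came first with 162 ± 10.1 CPM per kb (SD, n = 3), followed by Gas5 with 133 ± 2.12 and Snhg6 with 119 ± 52.0. The ranges of Snhg8 and Gas5 did not overlap, and that of Snhg6 included Gas5. Snhg5 (39.1 ± 3.13) and Snhg1 (38.7 ± 4.01) were next and did not differ beyond their spread. Snhg3 had 19.3 ± 3.74, Snhg12 10.6 ± 0.230 and Snhg15 9.34 ± 1.27 CPM per kb, and the ranges of the last pair overlapped. In the knockouts Gas5 (152 ± 4.22) and Snhg8 (150 ± 2.11) overlapped. By the median length of transcripts without a retained intron, Gas5 came first, with 998 ± 15.9 CPM per kb in controls against 283 ± 17.6 for Snhg8. Summed over the 8 hosts, controls held 955 to 1076 CPM and knockouts 1023 to 1150 CPM, of which Gas5 made up 46.5 to 57.7%. The sums of all 8 overlapped between genotypes. Without Snhg6, left out after its values were seen, they were 847 to 902 CPM in controls and 952 to 988 CPM in knockouts. Gas5 was the largest part of these sums too.

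Other snoRNA hosts were read beside the 8. From a list of 14 noncoding hosts of the same kind, 11 were tested and 7 lay above 0 and 4 below, with the median at 0.081. None had an unadjusted p under 0.05 in edgeR, and DESeq2 called none. Zfas1, also a host with a pyrimidine-rich start, had 262 ± 10.9 CPM in controls and 306 ± 41.6 CPM in knockouts (SD, n = 3). Its log2 change was 0.22 ± 0.11 (SE, adjusted p = 0.737 in edgeR). Snhg17 had a log2 change of 0.39 ± 0.22 (SE). Taken from the annotation alone, 21 noncoding genes other than the 8 with a snoRNA inside were tested, of which 8 are also among the 11 just described. Of the 21, 11 were higher, with a median of 0.0095 and no call in edgeR. The 1 with an unadjusted p under 0.05 was 2410006H16Rik, named after its values were seen, with a log2 change of 0.37. Of all tested genes, 7.00% were under that value. Among 217 hosts annotated as protein-coding, with Snhg11 of the list of 14 among them, 129 were higher. Their median was 0.038, with no call in edgeR. At an unadjusted p under 0.05 there were 9, 4 higher and 5 lower, beside the same 7.00% of all tested genes. Noncoding genes with no snoRNA annotated inside were also mostly higher in the knockout (522 of 854, or 61.1%, with a median of 0.078), near the 62.5% of the 8 hosts.

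**Figure D5:**
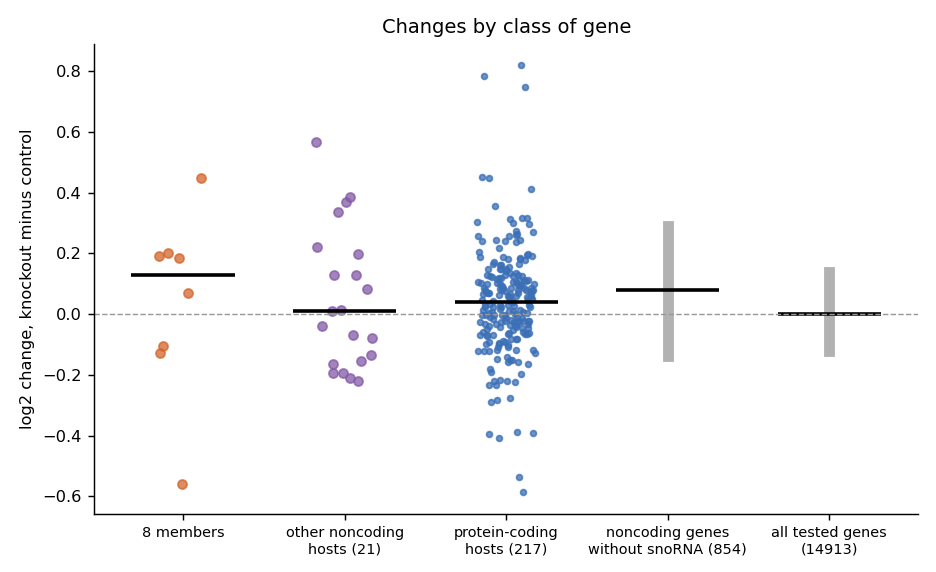
Log2 change, knockout minus control (y axis), by class of gene. Points are single genes, black bars medians and grey bars the middle 50% of genes for the classes too large to draw. The median of the 8 hosts is 0.13, that of the 21 other noncoding hosts 0.0095 and that of noncoding genes without an annotated snoRNA 0.078.

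Genes of the processes around these hosts were read from lists, and DESeq2 called none in any of them. Of 40 listed protein-coding hosts, 24 were higher and none passed in edgeR (median 0.038). At an unadjusted p under 0.05 there were 2, beside 7.00% of all tested genes. Eif4a2, an RNA helicase of translation initiation, had -0.39 ± 0.14 and the ribosomal protein gene Rpl4 had 0.27 ± 0.12 (log2 change, SE). Of 20 proteins that form or assemble snoRNPs, 9 were higher (median -0.048). The H/ACA core protein Nop10 had 172 ± 36.2 CPM in controls and 129 ± 23.7 CPM in knockouts (SD, n = 3), with a log2 change of -0.41 ± 0.17 (SE). It did not pass in the group-only edgeR fit (adjusted p = 0.680) and, alone among the 20, fell in the fit blocked by letter (adjusted p = 0.0215). The median of 22 genes of RNA polymerase I and ribosome assembly was -0.080, with 9 higher and none at an unadjusted p under 0.05. In that list the polymerase subunit Polr1b had -0.33 ± 0.16 and the nucleolar chaperone Npm1 0.21 ± 0.11.

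Genes of the decay pathway and its targets split evenly by direction. Of 20 nonsense-mediated decay factors 10 were higher, with a median of 0.012. None passed in edgeR, and 2 had an unadjusted p under 0.05, beside 7.00% of all tested genes. Upf2, a core factor, had a log2 change of 0.35 ± 0.15 (SE). Of 19 tested genes with transcripts known as targets of this decay, 9 were higher and none passed in edgeR (median -0.0095). Counts per gene sum all isoforms, so isoforms that decay and those that do not were not told apart. An unadjusted p under 0.05 was found for 5 of them, 4 higher and 1 lower, and for 7.00% of all tested genes. Trib3, a pseudokinase that is also an ATF4 target, had 2.21, 1.98 and 2.24 CPM in the controls against 6.07, 4.82 and 2.60 CPM in the knockouts. The genotypes of Trib3 did not overlap, and its log2 change was 1.06 ± 0.32 (SE, adjusted p = 0.473 in edgeR). The kinase Clk1 had 0.28 ± 0.12. Of 18 tested mRNAs with the same kind of 5′ tract, ribosomal proteins left out, 12 were higher and none had an unadjusted p under 0.05 in edgeR (median 0.048), with 0.21 ± 0.11 for Npm1 and 0.17 ± 0.12 for Eif3e.

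Markers of cell types were read over the same libraries, and none passed in the group-only edgeR fit. At an unadjusted p under 0.05 there were 15 higher and 7 lower. Of all tested genes, 7.00% were under that value, 3.19% as higher and the rest as lower. Interneuron markers were higher in 11 of 12 (1622 to 1745 CPM summed in controls, 1695 to 2047 CPM in knockouts), and Gad2, which makes GABA, rose in the fit blocked by letter. Progenitor markers were higher in 9 of 10 (1139 to 1270 against 1184 to 1408 CPM). Endothelial and mural markers were higher in 10 of 12 (291 to 336 against 338 to 368 CPM), and microglial ones in 10 of 12 (153 to 187 against 176 to 221 CPM). Excitatory neuron markers were higher in 5 of 12, and Slc17a7, Emx1 and Rorb were among those that fell in the fit blocked by letter. DESeq2 called Emx1 and Rorb. Emx1 is also the gene that drives Cre, which the knockouts alone carry. A lower Emx1 through the Cre allele and a lower marker level cannot be told apart. Genes of dividing cells were higher in 4 of 12 (184 to 216 against 186 to 194 CPM). Astrocyte markers were higher in 2 of 8 (563 to 602 against 520.0 to 603 CPM), oligodendrocyte lineage markers in 1 of 8 (282 to 334 against 251 to 270.3 CPM) and blood genes in 0 of 5 tested (388 to 546 against 399 to 479 CPM). No marker was at 0 in all libraries. The part of cell composition in the host values was not tested.

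The genes whose profile over the 6 libraries was most like that of Gas5 were Chd7, Tead1, Dpy19l1, Crbn and Ptpn2. The measure was the root mean square difference of log2 CPM profiles scaled to unit SD, which ran from 0.135 to 0.220 SD for these 5 of 9159 genes compared, the 8 hosts and unnamed loci left out. Among the hosts, Snhg12 was the closest to Gas5 (0.206), then Snhg1 (0.802) and Snhg5 (0.917), and Snhg8 the farthest (1.83). For the mean profile of the 8 hosts the closest were Rabif, Rnf139, Stard3, Atf2 and Grin2d (0.213 to 0.274).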

How the data were processed

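The authors deposited raw counts of reads per gene, 1 table per library with 4 summary lines on top as STAR writes them. The tool listed is STAR 2.5.4 and the build GRCm38 (mm10), per the submitters' processing notes. Libraries were made from polyA RNA with Lexogen's SENSE kit, per the labels' protocols. Neither the annotation used for counting nor read filters are given in the sources used here. Column 3 (stranded counts) was used, which held 18.6 times the reads of the opposite strand. Summary lines stayed out of library sizes. Unmapped reads were 26.1 to 27.7% of reads and ambiguous ones 0.689 to 0.759% of mapped ones. The multi-mapping line was 0, so a read that fits several copies of a gene was counted for none.

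Symbols, positions and exons came from GENCODE M21 (52403 of 52550 identifiers matched), and 5′ sequences from RefSeq (GRCm38.p6). The test was that of edgeR 4.0.16 in R 4.3.3 (filterByExpr, TMM factors 0.979 to 1.04, robust quasi-likelihood F-test, two-sided, Benjamini-Hochberg over all 14913 genes, threshold 0.05) and, as an alternative, DESeq2 1.42.0. The group-only fit was also run on simulated counts, which held no effect of the letter. SE is the log2 change divided by the square root of F. Intervals are 95%. Log2 CPM profiles used a prior count of 2.

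Control and knockout of the same letter deviated together from their group means, with correlations across genes of 0.417, 0.342 and 0.211. Between letters they were at most -0.0310. Deviations from a group mean cancel out within the group, so positive values within letters bring negative ones between letters by construction. The letter was entered as a block in a second fit. The labels do not say what the letter marks. Within groups, chi-square per degree of freedom was at least 7.59, so no library was a copy of another.

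The hosts and gene lists were chosen with earlier results of these data known. The text names Slc7a5, the 8 hosts, their neighbours within 2 kb, list members that passed (otherwise the 2 with the smallest p) and the 5 genes most like each profile. Some genes that this rule names are not reported here. The listed hosts Snhg4 and Snhg7 had no matching identifier. Alternatives were other scalings, no filter, unstranded counts, DESeq2, the letter block and leaving out each library or letter.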

Additional observations from a re-analysis of the deposited data

How the results depend on the processing

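Of 127 alternative values for the 8 hosts, 121 kept their direction and stayed outside the threshold, 4 turned direction and 2 passed. Leaving out single libraries, or a letter in the fit with the replicate block, moved the log2 change over 0.17 to 0.21 for Gas5, 0.11 to 0.29 for Snhg1, 0.12 to 0.25 for Snhg5, 0.42 to 0.49 for Snhg12, -0.14 to -0.043 for Snhg8, -0.29 to 0.031 for Snhg3, -0.17 to 0.24 for Snhg15 and -1.81 to -0.17 for Snhg6. The turned values were 0.031 for Snhg3 without control C, and for Snhg15 -0.15 without knockout B, -0.016 without control C and -0.17 with the replicate block without letter B. The 2 that passed were Snhg12 with the replicate block without letter B (0.48, adjusted p = 0.0403) and Snhg6 with the block without letter A (-0.83, adjusted p = 3.84e-07). The 2 pairs behind the latter went opposite ways (0.25 and -2.03), and the cause of its small p was not tested. Snhg3 had too few unstranded reads to be tested.

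Over all genes, 5 passed in the group-only fit and 126 with the letter as replicate block, which changed no call of a host. DESeq2 called 24, and 30 with the block (chosen after seeing the data). The count was 10 with library totals as scaling and 71 with no filter on low counts. It ran from 1 to 9 with 1 library left out (1 without knockout B, 2 without control A or control B, 9 without knockout C), and from 77 to 228 with the block and 1 letter left out (228 without A, 161 without B, 77 without C). The cause of these shifts was not tested. Ranks of the levels by CPM per kb moved for 4 hosts with spliced length (chosen after seeing the data). The hosts had 759 (Snhg15) to 31186 (Gas5) reads each over the 6 libraries, which limits the precision of the scarce ones.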
